A study of Saccharomyces cerevisiae with 12 samples.

Results

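The phosphate starvation and polyphosphate genes described here are 10 genes of budding yeast, taken by name from the 6412 genes and other features that were counted in each library, apart from spike-in RNA. They comprise the phosphate transporters PHO84 and PHO89, SPL2, a small regulator of phosphate uptake, the polyphosphate polymerase subunits VTC1 and VTC3, the secreted acid phosphatases PHO5, PHO11, PHO12 and PHO3, and the vacuolar alkaline phosphatase PHO8. All 10 passed the filter on low counts, which kept 5662 genes.

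Polyadenylated RNA was sequenced from 3 groups of W303 cells with 4 libraries each. Bypass G1 cells (strain YKR1503) expressed Dpb11, the CDK phosphorylation-mimicking allele sld2-T84D and Dbf4 from the galactose-inducible pGAL1-10 promoter. The first pair bypasses the need for the kinase CDK, and Dbf4 activates the kinase DDK in G1, so that replication can start outside S phase. Wild-type G1 cells (strain YKR1500) went through the same treatment, a G1 arrest with the mating pheromone α-factor for 2.5 h followed by galactose for 3 h. Wild-type S phase cells (strain E3087) were arrested for 2.5 h and released into fresh medium for 30 min. The labels name no sugar for this medium. All cultures were grown in YP medium with raffinose and adenine at 30 °C. Each group is a different strain, and the S cells also differ from both G1 groups in time and in the change of medium, so that strain, time, medium and cell cycle phase cannot be told apart.

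Phosphate limitation is sensed in yeast by the PHO pathway. When phosphate is plentiful, the cyclin-kinase pair Pho80-Pho85 phosphorylates the transcription factor Pho4 and keeps it out of the nucleus. When phosphate runs short, the inhibitor Pho81 blocks the kinase, and Pho4 together with Pho2 switches on phosphatases, high-affinity transporters and the VTC complex, which makes polyphosphate, the phosphate store of the vacuole. Pho4 binds the E-box CACGTG and, more weakly, its variant CACGTT.

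The upstream sequences are shown because these genes are known for their Pho4 sites, and the number of sites can be set beside the change of each gene. CACGTG and CACGTT were searched on both strands of the 500 bases before each start codon, where a palindromic E-box counts once and the 2 motifs cannot start at the same base. CACGTG was in 6.23% of 6006 such windows of the nuclear genome, CACGTT in 16.0%, either in 21%, and 2 or more sites in 2.71%. Of the 10 members, 9 had at least 1 site and 7 had 2 or more. SPL2 had 4, PHO84 and VTC3 had 3 each, PHO5, PHO11, PHO12 and PHO89 had 2 each, and PHO8 and VTC1 had 1. PHO3 had 0, which says only that these letters are not in its window. A match is a description of the reference sequence and not evidence of binding, and the windows can reach into a neighbouring gene. The stretches below run 5′ to 3′ on the strand of the gene, were read from the R64 reference assembly (the one that sacCer3 names), and have the motifs in capitals. The W303 strains used here may differ from it. AACGTG is CACGTT on the opposite strand.
PHO84, chr13:26042-26251, minus strand: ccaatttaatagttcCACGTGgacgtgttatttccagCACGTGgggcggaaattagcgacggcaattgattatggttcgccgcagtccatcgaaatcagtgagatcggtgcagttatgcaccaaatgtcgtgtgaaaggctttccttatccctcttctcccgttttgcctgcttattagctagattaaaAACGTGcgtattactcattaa
PHO89, chr2:798825-799000, minus strand: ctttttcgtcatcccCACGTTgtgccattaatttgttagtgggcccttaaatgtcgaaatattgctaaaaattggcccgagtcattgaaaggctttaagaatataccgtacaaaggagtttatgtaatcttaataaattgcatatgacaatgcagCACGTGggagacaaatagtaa
VTC3, chr16:517276-517378, minus strand: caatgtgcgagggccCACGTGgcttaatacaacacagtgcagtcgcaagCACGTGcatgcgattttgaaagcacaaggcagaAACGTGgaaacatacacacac
VTC1, chr5:302634-302669, plus strand: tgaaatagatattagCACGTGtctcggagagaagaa
PHO5, chr2:431184-431328, minus strand: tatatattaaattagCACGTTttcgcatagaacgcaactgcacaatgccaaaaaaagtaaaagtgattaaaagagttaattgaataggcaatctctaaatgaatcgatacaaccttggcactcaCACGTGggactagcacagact
PHO8, chr4:1420610-1420645, minus strand: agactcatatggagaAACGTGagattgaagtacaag
SPL2, the site farthest from the start codon, chr8:375429-375488, minus strand: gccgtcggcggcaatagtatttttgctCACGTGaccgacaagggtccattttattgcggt
PHO11, the E-box, chr1:225150-225209, plus strand: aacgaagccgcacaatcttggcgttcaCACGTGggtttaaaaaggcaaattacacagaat
PHO84 thus had its E-boxes with first bases at -436 and -414 from the start codon, and PHO5 had its variant at -362 and its E-box at -253. The E-box window printed for PHO11 is letter for letter the same in PHO12. Of the 25 other phosphate pathway genes compared below, 15 had at least 1 site and 6 had 2 or more.

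**Figure D1:**
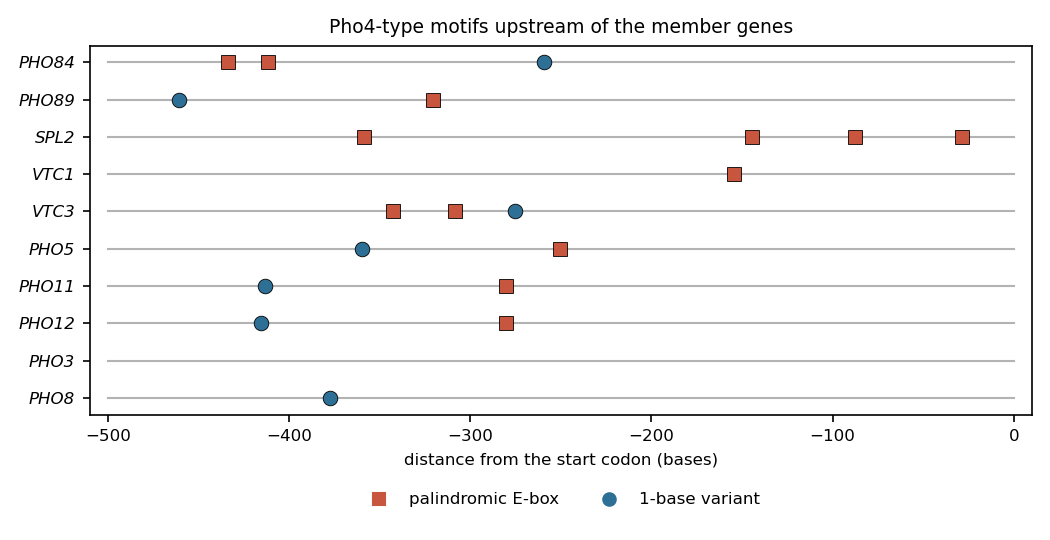
Positions of the palindromic E-box (squares) and its variant (circles) in the 500 bases before the start codon of each gene, as distance from the start codon in bases. SPL2 carries 4 E-boxes, PHO84 and VTC3 carry 3 sites each, and PHO3 carries 0.

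Each library held 8162140 to 10545835 read pairs counted on genes. The induced genes matched the labels, with DPB11 at 2251 ± 100.2 CPM (counts scaled to the normalised library size, mean ± SD, n = 4) in bypass G1 against 42.9 ± 0.527 CPM in wild-type G1 and 50.05 ± 3.47 CPM in S phase. SLD2 was at 3397 ± 219, 35.8 ± 2.93 and 55.9 ± 7.04 CPM in the same order, and DBF4 at 900.1 ± 47.9, 101 ± 4.96 and 129.9 ± 5.84 CPM. The pheromone-induced FIG1 was at 2612 ± 39.4, 2506 ± 71.0 and 26.6 ± 7.95 CPM, and the S phase histone gene HTA2 at 45.5 ± 4.45, 15.2 ± 3.88 and 1268 ± 38.6 CPM. GAL1 was at 10651 ± 123, 9227 ± 577 and 9729 ± 288 CPM, high in all 3 groups, although galactose is stated for the G1 groups only. In each group, replicates 1 and 2 resembled each other, and so did replicates 3 and 4. The mean chi-square per gene between 2 libraries, which is near 1 for counting noise alone, was 1.85 to 2.54 within these pairs and 43.2 to 46.2 across them in wild-type G1. It was 1.52 to 1.53 against 3.02 to 3.48 in bypass G1, and 1.53 to 2.21 against 7.35 to 8.07 in S phase. The labels do not say what the pairs share or that replicates came from separate cultures, so the p-values measure only the spread between these libraries. Results that rest on the pairs are given within each pair.

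PHO84, the main high-affinity phosphate transporter of the plasma membrane, carried the widest range of levels among the 10 genes. It lies on chromosome 13 (YML123C, 24037 to 25800, minus strand, 1 coding exon). In S phase, replicates 1 to 4 had 2674, 2715, 2151 and 1929 CPM. Bypass G1 had 210.5, 219.9, 168 and 168 CPM. In wild-type G1, PHO84 was at 663, 757, 91.9 and 88.1 CPM. Every S library thus stood above every G1 library, and the 4 bypass libraries fell between the high and the low pair of wild-type G1. Its log2 fold change in S phase was 3.63 ± 0.61 against bypass G1 (standard error, adjusted p = 0.000103, edgeR), which is 12.4-fold, and 2.56 ± 0.58 against wild-type G1 (adjusted p = 0.00123). These are bulk cultures, in which a change in the share of cells with a transcript and a change per cell cannot be told apart. Between bypass G1 and wild-type G1, the log2 fold change was -1.06 (95% interval -2.17 to 0.05, adjusted p = 0.143), with a wide interval, and the wild-type G1 pairs lay on either side of the bypass libraries.

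PHO89, a sodium-coupled high-affinity phosphate transporter (chromosome 2, YBR296C, 796798 to 798522, minus strand), showed the same parting of the wild-type G1 pairs. Its libraries were at 146, 157, 41.6 and 41.0 CPM in wild-type G1. The bypass G1 libraries had 50.9, 58.7, 36.5 and 35.0 CPM. In S phase the values were 106, 113, 103 and 100.3 CPM, which lie between the wild-type G1 pairs and above all bypass libraries. PHO89 was lower in bypass G1 than in wild-type G1 (log2 fold change -1.10, standard error 0.39, adjusted p = 0.0363, edgeR) and higher in S phase than in bypass G1 (1.23, adjusted p = 0.0112). The call against wild-type G1 was lost without wild-type G1 replicate 1 (adjusted p = 0.112) or replicate 2 (adjusted p = 0.121). Between S phase and wild-type G1 it was not called (0.13, 95% interval -0.61 to 0.87, adjusted p = 0.759).

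SPL2, a small protein that turns down low-affinity phosphate transport (chromosome 8, YHR136C, 374654 to 375100, minus strand), had the lowest counts of this trio and the largest rise in S against wild-type G1. In S phase it was at 40.6, 41.6, 29.0 and 25.6 CPM. Wild-type G1 libraries had 7.18, 5.37, 1.92 and 1.47 CPM, from 14 to 76 counts. The bypass G1 values of 3.35, 3.64, 2.53 and 3.15 CPM again fell between the wild-type G1 pairs. SPL2 was 8.43-fold higher in S phase than in wild-type G1 (log2 fold change 3.08, standard error 0.33, adjusted p = 1.31e-06, edgeR) and 10.7-fold higher than in bypass G1 (3.42, standard error 0.34, adjusted p = 6.2e-07). Between the G1 groups it was not called (-0.35, 95% interval -1.20 to 0.50, adjusted p = 0.539).

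VTC3 and VTC1 encode subunits of the vacuolar transporter chaperone complex. VTC3 (chromosome 16, YPL019C, 514511 to 517018, minus strand) was at 101, 101, 77.3 and 75.0 CPM in wild-type G1. In bypass G1 it was at 119, 122, 121 and 116 CPM, and in S phase at 478, 474, 358 and 374 CPM. The 3 groups did not overlap, and VTC3 rose in each step of this order. Against wild-type G1, its log2 fold change was 0.44 ± 0.12 in bypass G1 (standard error, adjusted p = 0.00858, edgeR) and 2.25 ± 0.12 in S phase (adjusted p = 1.06e-09). VTC1 (chromosome 5, YER072W, 302806 to 303195, plus strand) had 249, 253, 172 and 181 CPM in wild-type G1. The bypass G1 libraries were nearly equal, at 243, 245, 242 and 241 CPM, inside the range of wild-type G1. In S phase it had 580.2, 557, 491 and 503 CPM, above all G1 libraries. VTC1 rose in S by 1.32 against wild-type G1 (standard error 0.11, adjusted p = 1.61e-07) and by 1.13 against bypass G1. It was not called between the G1 groups (0.18, 95% interval -0.04 to 0.40, adjusted p = 0.202).

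Among the secreted acid phosphatases, PHO5 is the classical phosphate-repressible enzyme (chromosome 2, YBR093C, 429548 to 430951, minus strand). It was at 43.8, 44.5, 31.6 and 31.6 CPM in S phase. Wild-type G1 had 13.6, 17.5, 12.8 and 11.2 CPM, and bypass G1 had 18.6, 16.0, 14.99 and 17.9 CPM. PHO5 rose 2.73-fold in S against wild-type G1 (log2 fold change 1.45, standard error 0.15, adjusted p = 1.23e-06, edgeR), while the G1 groups overlapped (0.29, 95% interval -0.02 to 0.61, adjusted p = 0.153). PHO11 (chromosome 1, YAR071W, 225460 to 226863) and PHO12 (chromosome 8, YHR215W, 552099 to 553502), both on the plus strand, encode nearly the same acid phosphatase. Their coding sequences of 1404 bases differ at 4 positions, and only 9.91% and 10.9% of their 42-base windows, the read length, are unique in the genome. Pairs without a unique place in the genome were left out of the counts, so these genes are counted over only part of their length. Their separate values are uncertain, and the shares of unique windows hold for single reads and not for pairs. PHO12 had 12.6, 11.2, 11.8 and 10.8 CPM in S phase, 5.07, 4.97, 4.76 and 4.67 CPM in bypass G1 and 3.40, 4.67, 3.94 and 3.46 CPM in wild-type G1. Its rise in S was 1.58 against wild-type G1 (adjusted p = 1.9e-08), and it was called higher in bypass G1 by 0.33 (adjusted p = 0.0650), a call lost in DESeq2 (adjusted p = 0.109) and without either of bypass G1 replicates 1 and 2 or wild-type G1 replicates 1 and 4 (adjusted p from 0.104 to 0.178). PHO11 was at 4.34, 5.46, 3.66 and 5.13 CPM in S phase and at 1.59 to 2.84 CPM in the 8 G1 libraries. It rose by 1.18 in S against wild-type G1 (adjusted p = 5.87e-05). With PHO11 and PHO12 counted together, the log2 fold change was 1.46 in S (adjusted p = 1.96e-09) and 0.32 in bypass G1 (adjusted p = 0.0274), both against wild-type G1.

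The remaining phosphatases did not rise in S. PHO3, the acid phosphatase that phosphate does not repress, stands beside PHO5 (YBR092C, 427698 to 429101) and shares 86.5% of its coding sequence with it. It was at 52.1, 49.6, 30.1 and 33.0 CPM in wild-type G1. Bypass G1 had 31.1, 33.5, 31.6 and 31.5 CPM, and S phase had 27.6, 26.8, 29.3 and 30.7 CPM. Replicates 1 and 2 of wild-type G1 stood above the other 10 libraries. PHO3 was called lower against wild-type G1 in S (log2 fold change -0.52, adjusted p = 0.00636, edgeR) and in bypass G1 (-0.37, adjusted p = 0.0591). The latter call was lost without bypass G1 replicate 1, 3 or 4 or wild-type G1 replicate 1 or 2 (adjusted p from 0.108 to 0.189). Both calls rest on replicates 1 and 2, which alone gave -0.89 in S and -0.65 in bypass G1. With replicates 3 and 4 only, PHO3 was not called in S (-0.07, adjusted p = 0.449, edgeR) or in bypass G1 (-0.003, adjusted p = 0.978). PHO8, the vacuolar alkaline phosphatase (chromosome 4, YDR481C, 1418550 to 1420250, minus strand), varied least. It had 167, 163, 167 and 165 CPM in bypass G1, 149, 134, 152 and 149 CPM in wild-type G1 and 133, 132, 129.7 and 148 CPM in S phase. Bypass G1 stood above both other groups, by 0.18 against wild-type G1 (standard error 0.05, adjusted p = 0.0104). PHO8 was called lower in S than in wild-type G1 by a log2 fold change of -0.10 (adjusted p = 0.0740), a call lost in DESeq2 (adjusted p = 0.239), with spike-in totals (adjusted p = 0.831) and without any one of 6 of the 8 libraries compared (adjusted p from 0.137 to 0.187).

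**Figure D2:**
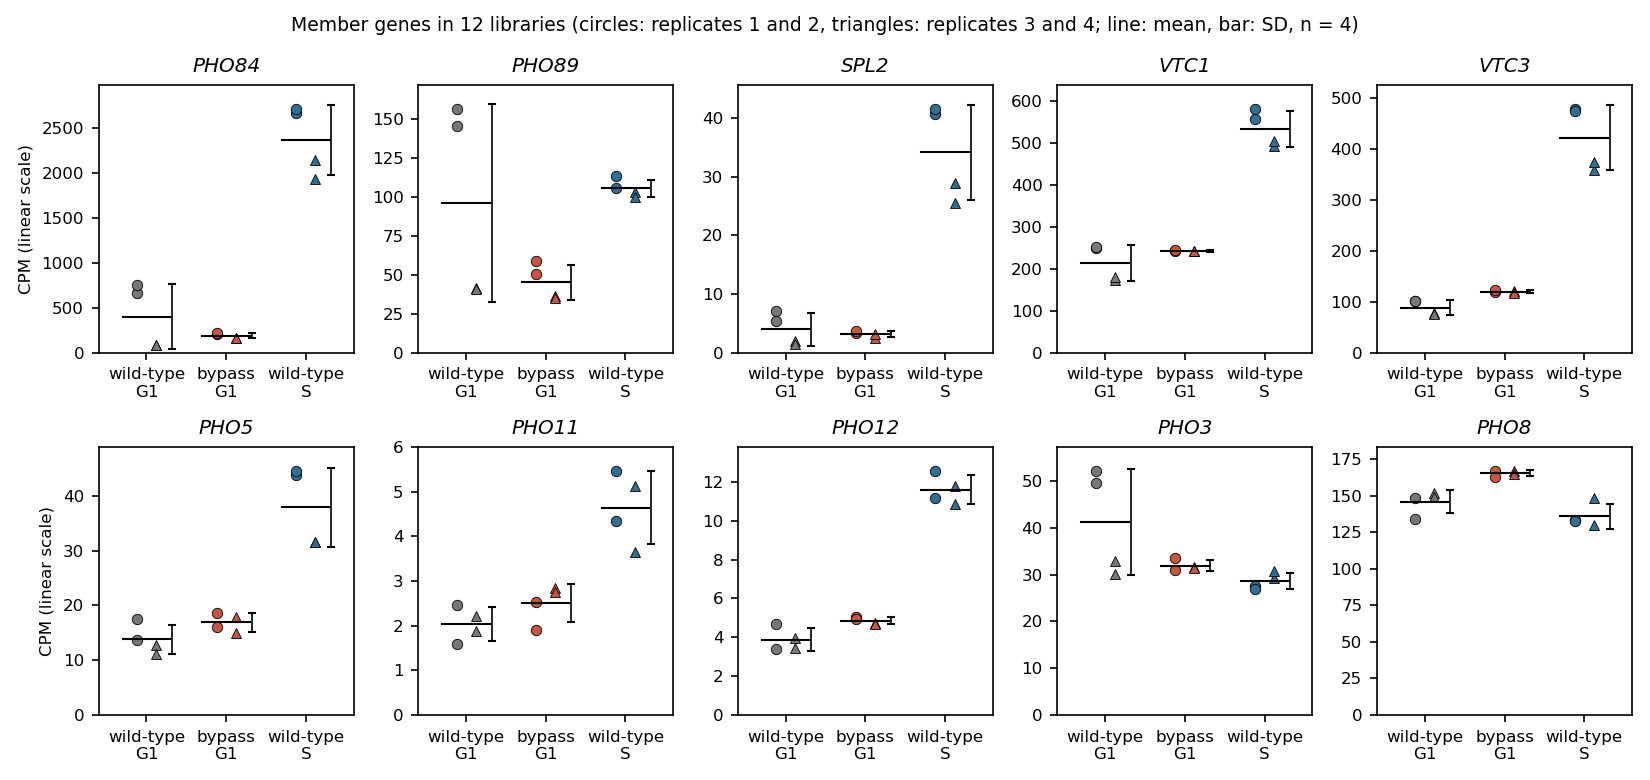
CPM of the 10 genes in each of the 12 libraries on linear axes, with circles for replicates 1 and 2, triangles for replicates 3 and 4, lines for the mean and bars for the SD (n = 4). PHO84, PHO89 and SPL2 part into a high and a low pair in wild-type G1, and the bypass G1 libraries of PHO84 and SPL2 lie between these pairs.

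Counted over the 10 genes, the S phase libraries differed most. Against wild-type G1, 7 of 10 were called higher in S, where 40.4% of the 5662 tested genes were (edgeR, Benjamini-Hochberg adjusted p below 0.1), and 2 were called lower, where 43.3% were. All 7 had a log2 fold change above 1, which 7.63% of all tested genes had. Against bypass G1, 8 were called higher in S (41.5% of all tested genes) and 1 lower (43.6%), and 7 of the 8 had a log2 fold change above 1, against 9.36% of all tested genes. Over the 10 genes, log2 fold changes had a median of 1.38 against wild-type G1 and 1.19 against bypass G1, where the medians of all tested genes were -0.02 and -0.02. These comparisons share the S libraries. Between the G1 groups, 3 of 10 were called higher in bypass G1 (PHO8, PHO12 and VTC3) and 2 lower (PHO3 and PHO89), against 26.0% and 28.5% of all tested genes, which is close to the background. Their median log2 fold change was 0.18, against -0.02 over all tested genes. Scaled by spike-in totals in place of TMM, the median of all genes moved to 0.20, and the share of calls that were higher in bypass G1 went from 47.7% to 91.0%. With this scaling, 5 of the 10 were called higher and 2 lower. Of the 5662 tested genes, 2534 were called higher and 252 lower. PHO5 and VTC1 were then called higher (0.51 and 0.39), PHO84 was called lower (-0.87, adjusted p = 0.0892) and PHO3 was no longer called. In the comparison of S phase with bypass G1, the same scaling moved the median of all genes to -0.16. With the counts of similar replicates summed, 0 of the 10 were called between the G1 groups in edgeR, where 1477 of all tested genes were called. PHO8 and VTC3 (2 of 10) had an unadjusted p below 0.05 there. In the same setting, 8 were called between S phase and wild-type G1 and 9 between S phase and bypass G1. Most genes were called in these comparisons in the main fit, 4743 and 4818 of the 5662 tested.

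**Figure D3:**
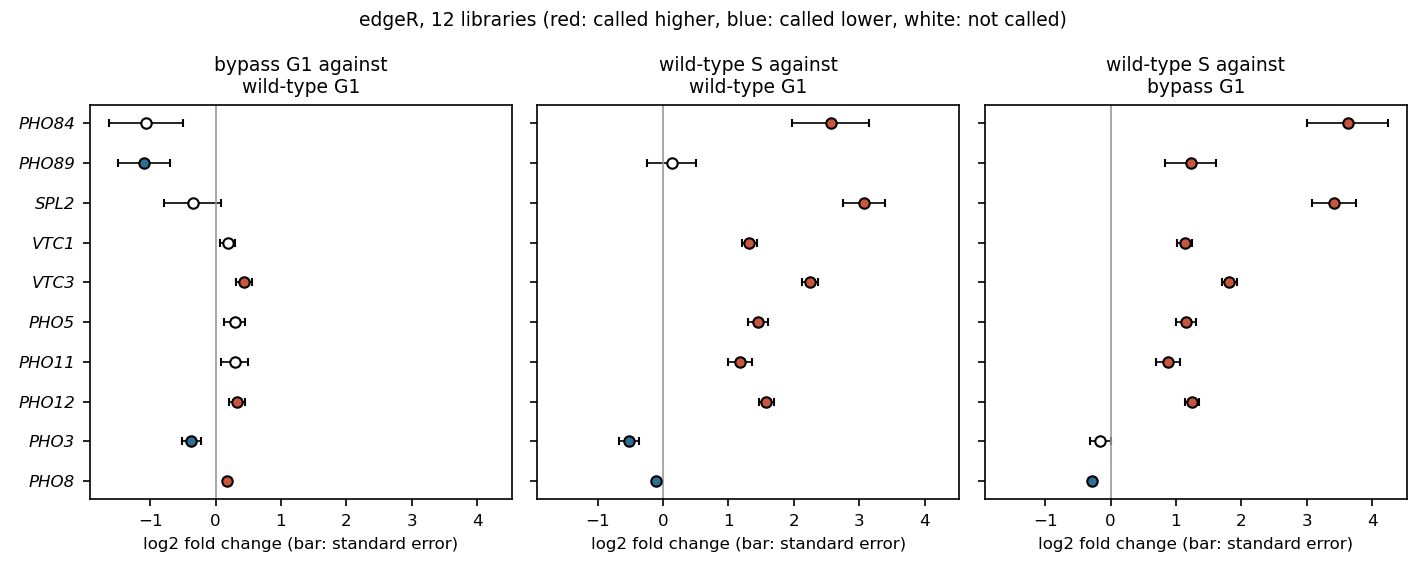
Log2 fold changes of the 10 genes with standard errors in the 3 comparisons, in red where called higher, in blue where called lower and in white where not called (edgeR, 12 libraries). Of the 10 genes, 7 are called higher in S phase than in wild-type G1 and 3 are called higher in bypass G1 than in wild-type G1.

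Among the 10 genes, PHO84, PHO89 and SPL2 parted most inside wild-type G1. PHO84 averaged 710.3 CPM in replicates 1 and 2 and 90.0 CPM in replicates 3 and 4, a 7.89-fold difference and the largest of all 5662 tested genes on the log2(CPM + 0.5) scale. PHO89 differed 3.66-fold (rank 13) and SPL2 3.70-fold (rank 22). Of all tested genes, 85 (1.501%) differed by more than 1 on that scale in wild-type G1, against 0 in bypass G1 and 7 in S phase. Of the 8 other transporter genes, PHO90 differed most (1.98-fold, rank 90) and PHO91 least (1.06-fold, rank 4050). PHO3 differed 1.61-fold, VTC1 1.42-fold, VTC3 1.32-fold and PHO5 1.30-fold, all higher in replicates 1 and 2. Both of these replicates lay above both others in wild-type G1 for 7 of the 10 genes, where 36.3% of all tested genes did, and below them for PHO8 alone, where 37.2% did. Replicates 1 and 2 lay above for 5 and below for 1 of the 10 in bypass G1 (22.5% and 22.5% of all tested genes) and above for 6 and below for 1 in S phase (25.9% and 27.6%). In bypass G1, PHO84 was 1.28-fold and PHO89 1.53-fold higher in replicates 1 and 2, and in S phase, PHO84 was 1.32-fold and SPL2 1.51-fold higher. PHO5 parted 1.40-fold in S phase, more than in wild-type G1, and PHO3 was lower there in replicates 1 and 2. What the pairs share was not tested.

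Within each pair of replicates, the direction of the change between the G1 groups depended on the pair for PHO84 and SPL2. With replicates 1 and 2 only, PHO84 was lower in bypass G1 by a log2 fold change of -1.71 (adjusted p = 8.47e-33, edgeR). With replicates 3 and 4 only, it was higher by 0.90 (adjusted p = 1.13e-17). SPL2 went from -0.84 (adjusted p = 0.000777) to 0.73 (adjusted p = 0.0396) in the same way. VTC1 was not called in replicates 1 and 2 (-0.03, adjusted p = 0.546) and was higher by 0.45 in replicates 3 and 4 (adjusted p = 3.48e-12). PHO89 stayed lower in both pairs, by -1.46 and -0.22, and VTC3 and PHO8 stayed higher in both, VTC3 by 0.27 and 0.63 and PHO8 by 0.23 and 0.13. Each of these fits has 2 libraries a group, and their p-values cover only the spread between the 2 libraries of a pair. In S phase against wild-type G1, PHO5, PHO11, PHO12, PHO84, SPL2, VTC1 and VTC3 were called higher in both pairs. The size moved for PHO84, from 3.83-fold in replicates 1 and 2 to 22.6-fold in replicates 3 and 4, and for SPL2, from 6.57-fold to 15.8-fold. VTC3 was almost the same in both, at 4.77-fold and 4.80-fold. PHO89 was lower in S in replicates 1 and 2 (-0.45) and higher in replicates 3 and 4 (1.30). Against bypass G1, whose pairs were close together, PHO84 was 12.6-fold and 12.2-fold higher in S in these pairs.

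**Figure D4:**
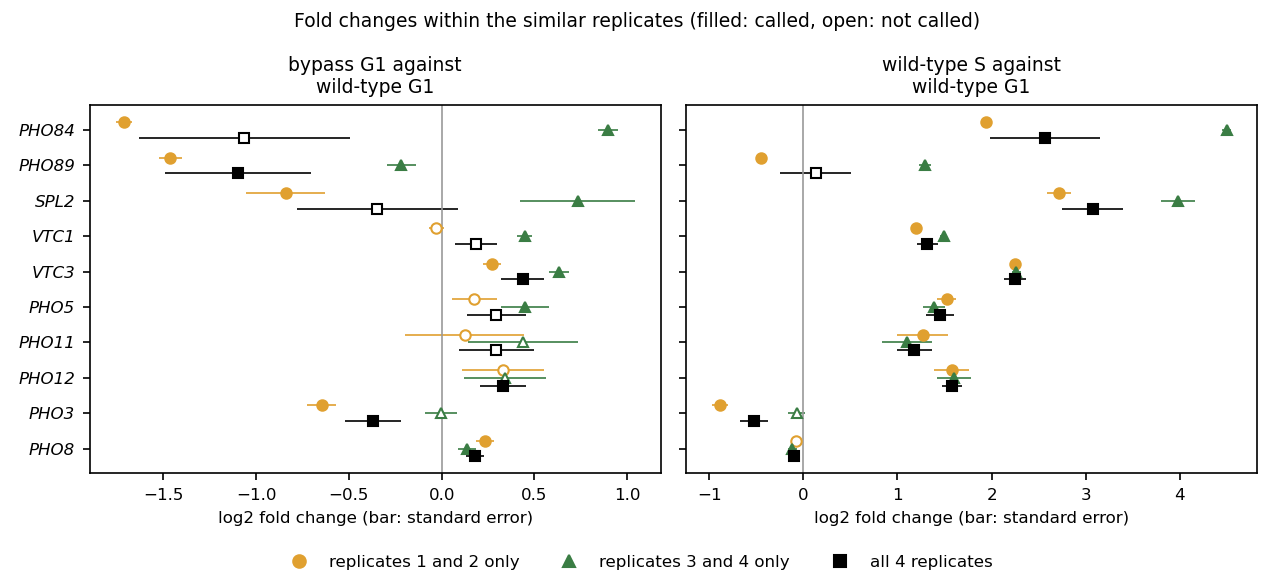
Log2 fold changes with standard errors against wild-type G1 in bypass G1 (left) and S phase (right), computed in replicates 1 and 2 only (circles), replicates 3 and 4 only (triangles) and all 4 replicates (squares), filled where called. PHO84 and SPL2 lie on opposite sides of 0 in the bypass comparison, and PHO89 does so in the S comparison.

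Across the 12 libraries, the genes outside the list whose deviations from the group means followed PHO84 most closely were NEW1 (Pearson r = 0.997), UTP22 (r = 0.995) and ERB1 (r = 0.993), on log2(CPM + 1). NEW1 encodes a translation factor of the ABC ATPase family, and UTP22 and ERB1 act in ribosome assembly. In wild-type G1 their means were 390.2, 237 and 496 CPM in replicates 1 and 2 and 219, 144 and 295 CPM in replicates 3 and 4. In bypass G1 they were 307, 175 and 400 against 278, 170 and 384 CPM, and in S phase 467, 241 and 701 against 430, 223 and 686 CPM. PHO84 itself parted by 2.97 on the log2(CPM + 0.5) scale in wild-type G1, against 0.36 in bypass G1 and 0.40 in S phase. These r values therefore rest mostly on the wild-type G1 libraries. Of the 10 genes, PHO89 followed PHO84 most closely (r = 0.975), then VTC1 (0.958), SPL2 (0.938) and PHO3 (0.917). VTC3 (0.801), PHO5 (0.610) and PHO12 (0.359) were intermediate, and PHO11 (-0.09) and PHO8 (-0.54) were lowest. These are descriptions over libraries that form pairs, and carry no test.

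In transcript levels per length (TPM), VTC1 was the highest of the 10 genes in each group, with 609 ± 6.10 TPM (SD, n = 4) in bypass G1, 529.9 ± 95.9 in wild-type G1 and 1146 ± 80.4 in S phase. PHO84 came next by its mean, at 106 ± 15.6, 217 ± 193 and 1125 ± 176 TPM, and its libraries overlapped those of VTC1 in S phase only. In both G1 groups they overlapped those of PHO8 (95.2 TPM in bypass G1 and 83.3 TPM in wild-type G1). Replicates 3 and 4 of the latter had PHO84 below PHO8, at 51.7 and 49.1 TPM against 88.7 and 86.3 TPM. VTC3 ranked next in S phase (141 ± 20.1 TPM), and PHO8, SPL2 and PHO89 followed at 67.1, 64.1 and 51.5 TPM with overlap between neighbours. PHO5 (22.6 TPM) stood above PHO3 (17.1 TPM) in S phase without overlap. In bypass G1 the order of these 2 genes was turned, with 11.8 TPM for PHO5 and 22.2 TPM for PHO3. PHO12 and PHO11 were lowest in each group, at 6.93 and 2.78 TPM in S phase, which uses the whole gene length. Over the length whose single-read windows are unique in the genome, they came to 57.0 and 25.2 TPM. The libraries hold read pairs, and a pair can be placed by either mate, so these values may be too high. Summed over the 10 genes, transcript levels were 929 ± 30.1 TPM in bypass G1, 968 ± 337 TPM for wild-type G1 and 2645 ± 287 TPM for S phase.

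A list of 25 other genes of the pathway was read beside these. Between S phase and wild-type G1, 11 of the 25 were called higher and 11 lower, where 40.4% and 43.3% of all tested genes were, with a median log2 fold change of -0.13. Against bypass G1 it was 10 and 10 in S phase (41.5% and 43.6% of all tested genes), with a median of -0.09. Between the G1 groups 8 were called higher in bypass G1 and 4 lower (26.0% and 28.5% of all tested genes), with a median of 0.04. The S phase counts are near these shares. The other subunits of the VTC complex were called higher in S along with VTC1 and VTC3. VTC4, its catalytic subunit, was at 614 to 701 CPM in S phase against 212 to 332 CPM in wild-type G1, a log2 fold change of 1.29 (adjusted p = 4.44e-07, edgeR). VTC5, an accessory subunit, rose by 1.11 (adjusted p = 1.55e-07), and was also higher in bypass G1 by 0.51 (adjusted p = 0.000968). GIT1, the permease for glycerophosphodiesters, rose by 1.89 in S (adjusted p = 3.75e-06, edgeR), from 12.4 to 16.7 CPM in wild-type G1 to 36.2 to 74.4 CPM. Its S libraries parted by pair, with means of 72.1 CPM in replicates 1 and 2 and 37.4 CPM in replicates 3 and 4. This 1.93-fold difference ranked 10 among all tested genes in S phase.

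GDE1, PHM8 and the carrier gene PIC2 fell in S phase. GDE1, which splits glycerophosphocholine, fell by 1.73 on the log2 scale in S against wild-type G1 (adjusted p = 7.34e-12, edgeR), with 64.8 to 70.2 CPM against 205 to 246 CPM. PHM8, a phosphatase that acts on nucleotides and lysophosphatidic acid, fell by 2.93 (adjusted p = 6.29e-11), to 9.83 to 14.4 CPM from 78.5 to 103 CPM. PHM6, the remaining gene of the starvation list, was not called in S phase (-0.15 against wild-type G1, adjusted p = 0.463, edgeR). PIC2, a mitochondrial carrier of phosphate and copper, fell by 1.07 in S (adjusted p = 1.65e-08) and was higher in bypass G1 than in wild-type G1 by 0.54 (adjusted p = 5.78e-05). In their upstream windows, GDE1 and PHM6 have 2 sites each, PHM8 has 1 and PIC2 has 0. Of the genes named above as rising in S, VTC4 has 2 sites, and GIT1 and VTC5 have 0. At least 1 site was in 21% of all windows and in 15 of the 25 genes. Of the 7 regulators, 3 were called higher and 3 lower in S phase against wild-type G1, and 2 higher and 3 lower against bypass G1, near the shares of all tested genes. Of the 7 other polyphosphate genes, the 3 VTC genes were called higher against both G1 groups. The remaining 4, which degrade phosphate chains or inositol pyrophosphates, were called lower against wild-type G1, and 3 of them, without YNL217W, against bypass G1. YNL217W fell by only 0.17 on the log2 scale against wild-type G1. Of all tested genes, 40.4% were called higher and 43.3% lower in S phase against wild-type G1. Against bypass G1 it was 41.5% and 43.6%. The split of these 7 genes was not tested.

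**Figure D5:**
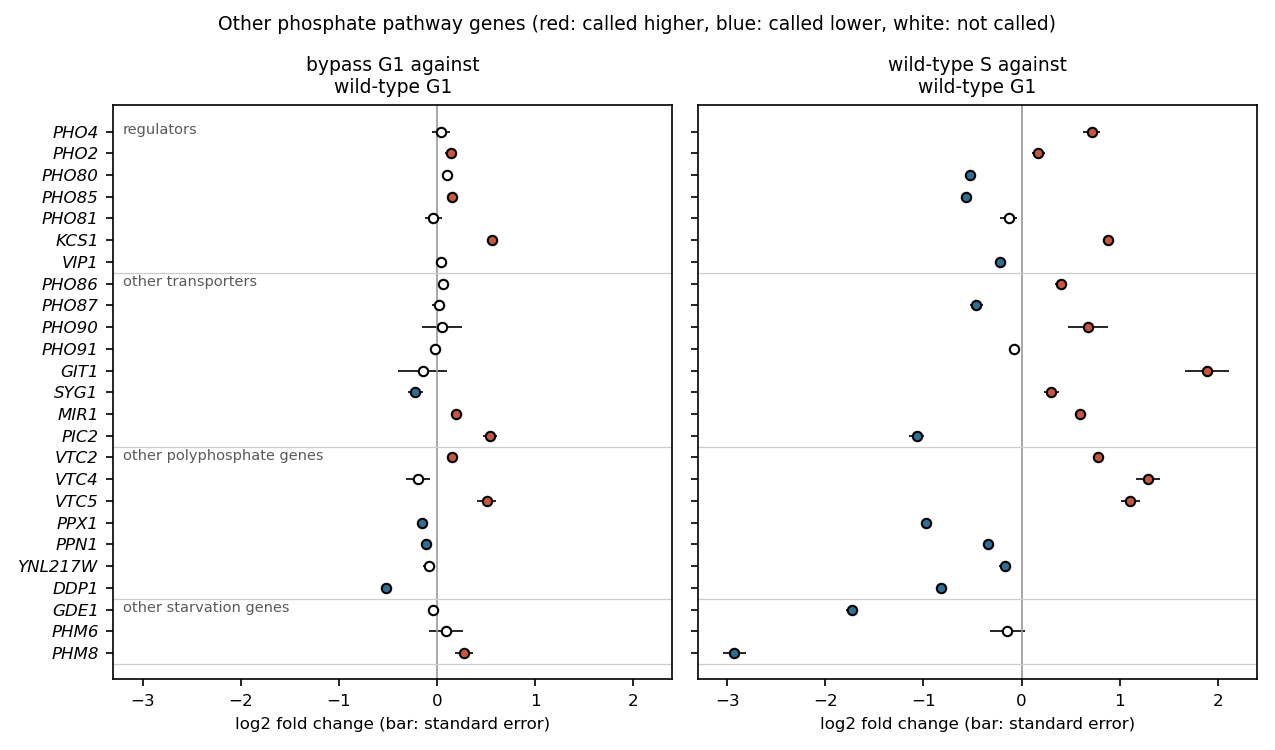
Log2 fold changes with standard errors of the 25 other phosphate pathway genes against wild-type G1 in bypass G1 (left) and S phase (right), by role, in red where called higher, in blue where called lower and in white where not called. In S, 11 of the 25 are called higher and 11 lower, and YNL217W is the name in the count files of a polyphosphatase gene.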

How the data were processed

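The authors deposited 1 table of raw counts of read pairs per gene for each of the 12 libraries. Per the study's methods, poly(A) RNA with ERCC spike-ins was made into directional libraries, sequenced as 42-base pairs, aligned to sacCer3 with STAR (2.7.10a in the submitters' processing notes) and counted by strand with HTSeq (2.0.1), without pairs that had several places in the genome. Rows that name no gene held 9.28% to 11.5% of each table and were left out, as were the 92 spike-ins. Groups and replicate numbers came from the sample labels.

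Genes were tested with edgeR 4.0.16 in R 4.3.3 (filterByExpr at a minimum count of 10, TMM, glmQLFit and glmQLFTest on 12 libraries in 3 groups) and called at a Benjamini-Hochberg adjusted p below 0.1. The standard error is the log2 fold change divided by the root of the F statistic, and 95% intervals are 1.96 standard errors to either side. CPM used TMM-scaled library sizes, and TPM used the gene lengths of R64, to which 6173 genes were matched. The chromosome of each of the 10 genes agreed between tables and annotation. The fit was tested on simulated counts. Calculations outside R used Python 3.11.15, pandas 2.3.3 and matplotlib 3.10.9.

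The 10 genes, the list of 25 other pathway genes and the tests were chosen with earlier results of these data known. The genes named were all 10, those of the 25 called with a log2 fold change of at least 1 in size in at least 1 comparison, DPB11, SLD2 and DBF4 to check the labels, FIG1, HTA2 and GAL1 to describe the cultures, and the 3 genes outside the 10 that followed PHO84 most closely. Of the 25, PHO90 and PHO91 were also named as the ends of a range. PHM6 was named as the rest of its list, and YNL217W for its calls. Alternatives were DESeq2 1.42.0, RLE, library totals and spike-in totals as scaling, a stricter and no filter on low counts, a threshold of 0.05, a test of fold changes beyond 2 (log2 of 1), a replicate block, only the groups compared, similar replicates summed or used alone, PHO11 and PHO12 summed, uniquely mappable length, and each library left out in turn.

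The deviations from the group mean of same-numbered libraries had r = 0.103 to 0.177 in the 4 pairs of S phase with wild-type G1. The range was 0.071 to 0.227 between bypass G1 and wild-type G1 and -0.001 to 0.013 between S phase and bypass G1. These low values do not settle whether same-numbered libraries belong together. The main fit paired no libraries, and the replicate block was an alternative only.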

Additional observations from a re-analysis of the deposited data

Results flagged for a closer look

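For 3 genes, both libraries of bypass G1 lay on one side of wild-type G1 in replicates 1 and 2 and on the other side in replicates 3 and 4. The log2 fold change was -1.71 and 0.90 for PHO84, -0.84 and 0.73 for SPL2, and -0.029 and 0.45 for VTC1. For PHO89, S phase lay below wild-type G1 in replicates 1 and 2 and above it in replicates 3 and 4, with log2 fold changes of -0.45 and 1.30. The difference between the pairs was not tested for any of these genes, since the pairs were seen in the same data. In 30 groups of 4 libraries, the gap of the most extreme library was set against the range of its group, and 0 stood far from the rest. For independent libraries, 1.5 would be expected by chance (1 in 20). Where libraries form pairs, an extreme library has a near neighbour, so the 0 cannot be read against that number.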

How the results depend on the processing

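Between bypass G1 and wild-type G1, 5 of the 10 genes were called. The number was 3 at an adjusted p below 0.05, 0 in edgeR tested for log2 changes beyond 1 (with 0 at an unadjusted p below 0.05), 0 with similar replicates summed (with 2), and 3 to 6 when 1 library was left out. Over all tested genes it went from 3083 to 29 in the test beyond 1 and to 1477 with similar replicates summed, and over the 25 other pathway genes from 12 to 0 and 4. The fold change of PHO84 turned to 0.90, and that of SPL2 to 0.73, with replicates 3 and 4 only, and that of VTC1 to -0.029 with replicates 1 and 2 only. Leaving out 1 library, SPL2 ranged from -0.61 to 0.11, the latter without wild-type G1 replicate 1, and PHO84 from -1.40 to -0.56, called lower without wild-type G1 replicate 3 (adjusted p = 0.0296, edgeR) or 4 (adjusted p = 0.0257). VTC1 was called higher without wild-type G1 replicate 1 or 2, and PHO5 without replicate 2. In S phase against wild-type G1, PHO89 turned to -0.45 with replicates 1 and 2 only and ranged from -0.13 to 0.47 with 1 library left out, below 0 without wild-type G1 replicate 3 or 4. In the test beyond 1, 6 of the 10 (without PHO3, PHO8, PHO11 and PHO89), 855 of all tested genes and 4 of the 25 were called there. Between S phase and bypass G1, 4 of the 10, 1000 of all tested genes and 5 of the 25 were called in this test. Of 210 fold changes of the 10 genes recomputed per comparison, 162 kept their direction and their side of the threshold between the G1 groups, 189 between S phase and wild-type G1 and 202 between S phase and bypass G1. PHO11 could not be tested with a filter of 50 counts on average.

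With a replicate block, the 10 genes gave 7 calls between bypass G1 and wild-type G1, with PHO5 (0.31) and VTC1 (0.20) added. They gave 9 in each S comparison, with no call of the 10 changed. The log2 fold change of PHO84 in S phase against wild-type G1 was then 2.98. Without the block, 3083 of the 5662 tested genes were called between the G1 groups. The number was 4743 between S phase and wild-type G1 and 4818 between S phase and bypass G1. Of 8 libraries in a comparison, 4 in bypass G1 and wild-type G1, 5 in S phase and wild-type G1 and 3 in S phase and bypass G1 correlated best with their own number. The cause of these changes was not tested. Depth limits PHO11, PHO12 and SPL2 most, with as few as 16, 33 and 14 counts in a library.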
